A study of Danio rerio with 4 samples.

Results

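Normal development of the zebrafish embryo was followed in the wild-type channel of 4 Agilent 2-colour oligonucleotide arrays, 2 of embryos at 12 hours post fertilization (hpf) and 2 at 24 hpf. These 4 wild-type RNA samples, all labelled with Cy3, were chosen by label and dye, and they make up 4 of the 8 labelled RNA samples of the series. The other 4 were Cy5-labelled RNA of embryos of the same ages injected at the 1-cell stage with 2 to 3 nl of morpholino against Bad, a pro-apoptotic member of the Bcl-2 family, and they enter only the test of the difference between the groups at the end. The wild type at 12 hpf and the wild type at 24 hpf had no named allele or agent, were labelled as control, and came from a colony on a cycle of 14 h light to 10 h dark, at 28 °C. The arrays of an age are labelled as biological replicates. The p-values and standard errors rest on how far the 2 arrays of each age lay apart for a probe. This spread was drawn towards that of all tested probes, with 4.14 prior against 2 residual degrees of freedom. Each group was a pool of 200 whole embryos per array, so every value is a mean over many embryos and over all tissues. In RNA of whole embryos, fewer cells of a type and less RNA per cell cannot be told apart.

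Zebrafish gastrulation ends shortly before segmentation begins, and over the segmentation period somites form one after another from the presomitic mesoderm of the tail bud. In the same interval muscle fibres differentiate, the heart tube assembles and primitive blood cells form. The eye cup and lens form, the neural tube is regionalized and pigment cells begin to appear. Maternal transcripts are laid down in the oocyte and cleared as the embryo's own genome takes over. The genes below are therefore given by the tissue or process they are known for, from the muscle to the oocyte.

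Each array held 43603 noncontrol probes, and 26876 were well above background in Cy3 on both arrays of at least 1 age and were tested. Of these probes 18928 were called different between the ages (70.4%), and 14150 carried a current gene symbol, for 9967 genes, each represented by its brightest probe. Levels are given as log2 of the background-corrected and quantile-normalized Cy3 intensity, on which 1 unit is a 2-fold difference, and a level is comparable across arrays for 1 probe but not between probes. Differences are 24 hpf minus 12 hpf, with the standard error of the limma fit, 2 arrays per age, and Benjamini-Hochberg adjusted p-values over all tested probes, called at 0.05. Median spot signals were 52 and 59 at 12 hpf and 76 and 73 at 24 hpf over local backgrounds of 29 to 32, and between 55.9% and 61.5% of probes were well above background. Levels correlated across probes at 0.997 between the 12 hpf arrays and 0.998 between the 24 hpf arrays, against 0.898 to 0.903 between ages. The median absolute difference was 0.101 between the 12 hpf arrays, 0.0811 between the 24 hpf arrays and 0.457 between ages. All 4 arrays lay on 1 slide and were scanned together, each age at its own positions on it, so that position and age cannot be told apart.

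Most measured genes differed in level between the ages. Of the 9967 genes, 3394 were higher at 24 hpf (34.1% of those tested) and 4132 were lower (41.5%), and these shares are the background for every gene group below. The balance of the directions depended on the scaling: 45.1% of the called genes were higher under quantile normalization, against 32.1% (2500 higher, 5286 lower) when arrays were scaled to their 75th percentile and 37.2% (2859 higher, 4818 lower) with the scanner software's processed signals. The median difference of all genes was -0.08, and it was -0.32 and -0.34 under those scalings, so a small change is best read against the median of all genes. Large rises were more frequent than large falls. At least 2-fold higher were 1386 genes (13.9%) and at least 2-fold lower 982 (9.85%). At least 8-fold higher were 286 genes (2.87%), and at least 8-fold lower were 55 (0.552%). Genes whose probe was well above background at 1 age alone enter these counts. Such probes numbered 2212 for 24 hpf against 810 for 12 hpf. How far the balance of large changes rests on them was not tested.

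**Figure D1:**
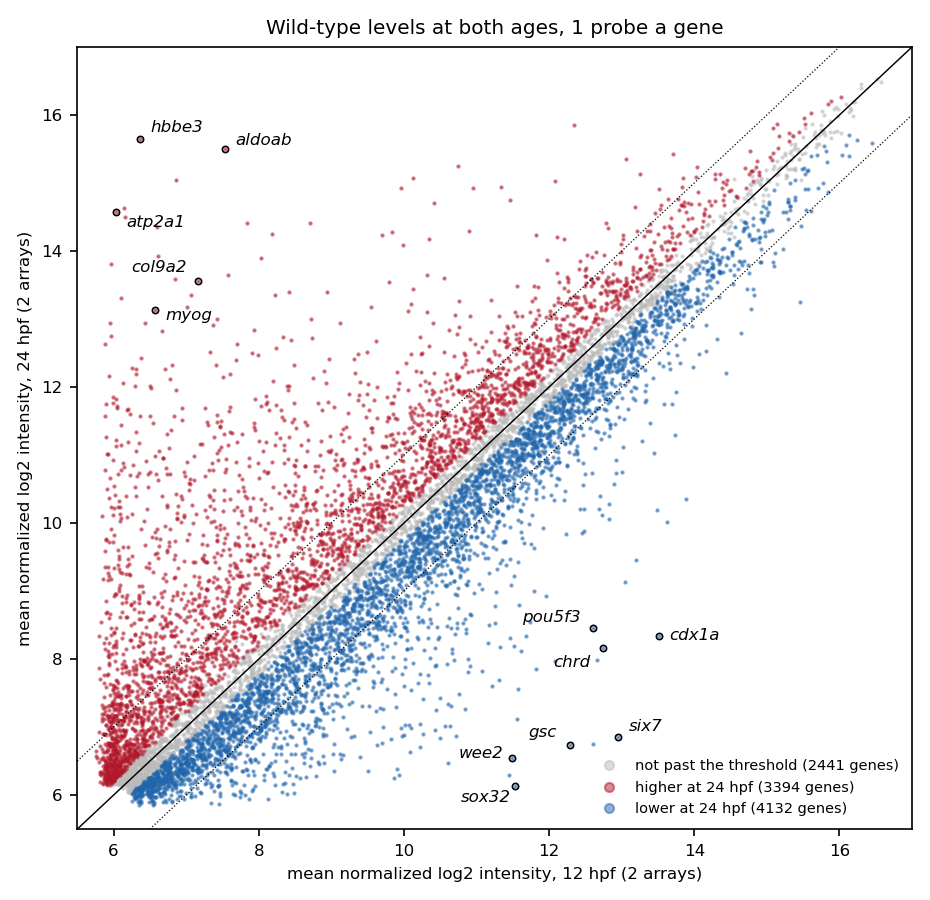
Mean normalized log2 intensity of each of 9967 genes (1 point a gene) in wild-type embryos at 12 hpf (x axis, 2 arrays) and 24 hpf (y axis, 2 arrays), red where higher and blue where lower at 24 hpf; the solid line marks equal levels and the dotted lines a 2-fold difference. The upper left corner, with genes such as hbbe3 and atp2a1, is more densely filled than the lower right, where six7, gsc and sox32 lie.

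The labelled ages were set against genes of known timing, chosen after their values were seen where they are in no group below. Both 12 hpf arrays carried transcripts of genes used in segmentation. The her7 probe, for an oscillating gene of the somite clock, read 11.25 and 11.26. The mespba probe, for a gene that marks the next somite to form, read 10.43 and 10.43. The hindbrain gene egr2b stood at 11.17 on both 12 hpf arrays and at 11.19 and 11.35 on the 24 hpf arrays, a difference of 0.10 that did not pass the test. Genes best known from the gastrula were also well above background at 12 hpf, among them gsc at 12.26 and 12.30 and nanog at 10.66 and 9.88. One gene of a differentiated tissue, the cardiac light chain gene myl7, read 6.05 on both 12 hpf arrays, not well above background. It read 11.75 and 11.71 at 24 hpf. Regulators of muscle and blood, picked likewise, were also low at 12 hpf. The myog probe read 6.64 and 6.51, and that of gata1a 5.96 and 5.94, not well above background. The stage of the embryos was not tested beyond these readings.

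The 20 largest rises ran from 6.22 to 9.29 on the log2 scale, with adjusted p-values from 1.88e-07 to 4.23e-07, and 10 of them are genes of muscle contraction. The largest was the embryonic beta globin gene hbbe3, which went from 6.30 and 6.43 at 12 hpf to 15.61 and 15.70 at 24 hpf, a difference of 9.29 ± 0.09 (SE). By the rule of choice, the ages did not overlap for any of the 20. For 9 of them the probe was not well above background on either 12 hpf array, so their folds are lower bounds: at least 371-fold for atp2a1, the calcium pump of the sarcoplasmic reticulum, at least 358-fold for the fast muscle light chain gene mylpfa, at least 223-fold for the muscle creatine kinase gene ckmb, and at least 102-fold for trim63a, a ubiquitin ligase of muscle. Outside muscle and blood the cartilage and notochord sheath collagen gene col9a2 rose by 6.41 ± 0.10, from 7.27 and 7.04 to 13.63 and 13.50, and the tubulin gene tuba8l3 by 7.32 ± 0.14, from 6.83 and 6.40 to 13.97 and 13.90.

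The 20 largest falls ran from -6.10 to -3.61, with adjusted p-values from 2.22e-07 to 8.93e-05. All 20 were well above background on both 12 hpf arrays, and 6 of them are in the group of gastrula patterning genes and 4 in that of oocyte and maternal genes. The homeobox gene six7 fell from 12.89 and 13.01 to 6.79 and 6.92, a difference of -6.10 ± 0.09. The endoderm regulator sox32 went from 11.56 and 11.51 to 6.11 and 6.16, where it was well above background on 1 of the 2 arrays. The caudal-type homeobox gene cdx1a dropped by 5.17 ± 0.09, from 13.54 and 13.49 to 8.25 and 8.44. The calcium-binding protein gene s100a1 fell by 3.92 and the prostaglandin D synthase gene ptgdsb.2 by 3.73. The spread between replicates stayed far below these differences, with the exception of the maternal linker histone gene h1m, which read 11.00 and 10.00 at 12 hpf and 6.85 and 6.82 at 24 hpf.

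**Figure D2:**
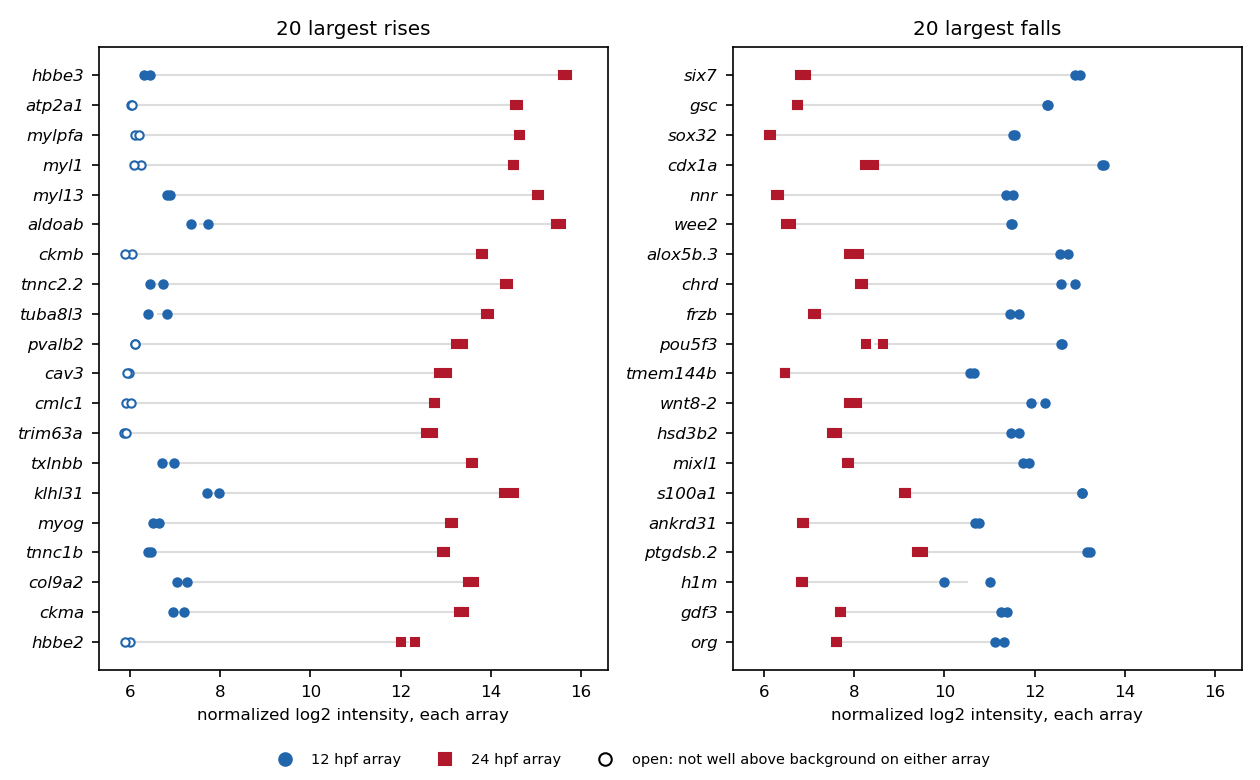
Normalized log2 intensity on each array (x axis) for the 20 largest rises and the 20 largest falls, with circles for the 12 hpf arrays, squares for the 24 hpf arrays and open symbols where the probe was not well above background on either array of an age. The ages are apart for every gene, as the rule of choice requires, and h1m shows the widest gap between replicates of one age, from 10.00 to 11.00.

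Muscle genes moved most as a group. Of 72 genes of muscle contraction on the array 65 were measured, and 61 were higher at 24 hpf, 2 were lower and 2 did not pass the test, with a median difference of 3.99 against -0.08 over all genes. For 29 of the 65 the probe was not well above background on either 12 hpf array, so they were tested only because they were bright at 24 hpf. Among the 32 that were well above background on all 4 arrays, 30 were higher and 1 was lower, with a median of 3.71. The essential light chain gene myl1 went from 6.24 and 6.08 to 14.48 and 14.51, at least 323-fold higher at 24 hpf. Both members that fell are paralogues of muscle genes: the troponin I gene tnni2b.2 went from 7.97 and 8.18 to 6.25 and 6.18, and the slow myosin heavy chain gene smyhc2 from 6.81 and 6.63 to 5.92 and 5.87, which was not well above background, so that it was at least 1.65-fold lower.

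The regulators of myogenesis were mixed where the contractile genes were nearly uniform. All 25 on the array were measured, and 15 were higher, 5 lower and 5 not past the threshold, with a median of 0.58. The differentiation factor myog rose by 6.56 ± 0.08, from 6.64 and 6.51 to 13.10 and 13.17. The cofactor mef2ca, which drives sarcomere genes, rose by 3.87 ± 0.11, from 7.84 and 8.06 to 11.93 and 11.71. The early determination factor myf5 was already high and fell, from 12.90 and 12.92 to 11.28 and 11.64, a difference of -1.46 ± 0.13. Smaller falls were seen for lbx2 (-0.99), six4b (-0.69) and prdm1a (-0.63), the last a repressor that directs precursors towards slow muscle.

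The heart genes moved both ways. Of 35 on the array 31 were measured, 22 higher, 7 lower and 2 not past the threshold, with a median of 1.38. The median was -0.16 among the 15 genes that were well above background on all 4 arrays, of which 7 were higher and 7 lower, so the direction of the group rests on genes not well above background at 12 hpf. The 4 largest rises of the group were among those genes, and were of the contracting heart muscle. The cardiac light chain gene cmlc1 was at least 109-fold higher at 24 hpf and the cardiac troponin T gene tnnt2a at least 52.8-fold. The gene myl7 was at least 51.1-fold higher and fhl2a, a LIM protein of muscle, at least 28.2-fold. The other genes not well above background at 12 hpf were not sorted by kind. The falling genes named here are regulators and a matrix gene. The zinc-finger factor gata6 fell from 11.57 and 11.37 to 9.13 and 9.06, a difference of -2.38 ± 0.09. Its relative gata5 fell by 1.40 ± 0.08, from 12.89 and 12.79 to 11.42 and 11.45, the hyaluronan synthase gene has2 of the heart cushions by 1.52 ± 0.09, and klf2a, a factor that responds to blood flow, by 1.86 ± 0.09. The gata genes and klf2a are also used by other tissues, and their part in these falls was not tested.

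Most embryonic globin and red cell genes rose. Of 46 erythroid genes on the array 44 were measured, with 31 higher, 8 lower and 5 not past the threshold, and a median of 1.28; among the 34 well above background on all 4 arrays 22 were higher and 7 lower. The beta globin gene hbbe2 was not well above background at 12 hpf and read 12.33 and 12.00 at 24 hpf, at least 72.8-fold higher. The alpha globin genes hbae3 and hbae1.1 started from a measured level. The hbae3 probe rose from 9.98 and 9.93 to 15.03 and 14.82, a difference of 4.97 ± 0.10. The hbae1.1 probe rose from 10.24 and 10.01 to 15.10 and 15.05, a difference of 4.95 ± 0.10. A further alpha globin gene, hbae4, was not well above background at 12 hpf and was at least 15.4-fold higher at 24 hpf. Near-identical globin genes can share a probe's signal, so the split among paralogues is uncertain. Not every gene of the group rose, since the carbonic anhydrase gene cahz fell by 2.31 ± 0.10, from 12.79 and 12.61 to 10.46 and 10.33, and the ferritin gene fth1b by 1.03 ± 0.10.

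Endothelial genes showed a like balance of rises, 29 higher, 6 lower and 6 not past the threshold among 41 measured of 47 on the array, with a median of 1.29. The lectin gene clec14a of vessel walls rose by 5.07 ± 0.13, from 6.68 and 6.33 to 11.52 and 11.62. The secreted angiogenic factor egfl7 rose by 3.76 ± 0.09, from 8.16 and 8.05 to 11.92 and 11.80, and the ETS-family gene fli1rs was at least 18.0-fold higher. Among the genes of the group that fell were gata2a, from 13.41 and 13.25 to 11.79 and 11.84, and the chemokine receptor gene cxcr4a, from 12.27 and 12.24 to 10.81 and 10.88. Of other receptor genes in the group, chosen after their values were seen, kdr (-0.18), flt1 (-0.12) and flt4 (-0.10) did not pass the test. Of those chosen likewise that passed, ephb4a fell by 0.29 ± 0.08 and tek rose by 1.96 ± 0.08.

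Myeloid genes did not move one way. Of 45 on the array 35 were measured, 21 higher and 13 lower, with 1 not past the threshold and a median of 0.36 that became -0.17 among the 26 genes well above background on all 4 arrays (12 higher, 13 lower); without 24 hpf replicate 2 there were 8 lower. The actin-regulating gene arpc1b was at least 7.82-fold higher at 24 hpf, and coro1a, coding for a coronin of leukocytes, rose by 2.39 ± 0.12. The NADPH oxidase subunit gene ncf1 rose by 1.60 ± 0.10. In contrast the plastin gene lcp1, a leukocyte marker at later stages, fell from 13.93 and 13.84 to 10.39 and 10.33, a difference of -3.53 ± 0.08. A membrane subunit gene of the same oxidase, cyba, fell by 2.48 ± 0.07, from 10.84 and 10.88 to 8.38 on both arrays.

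**Figure D3:**
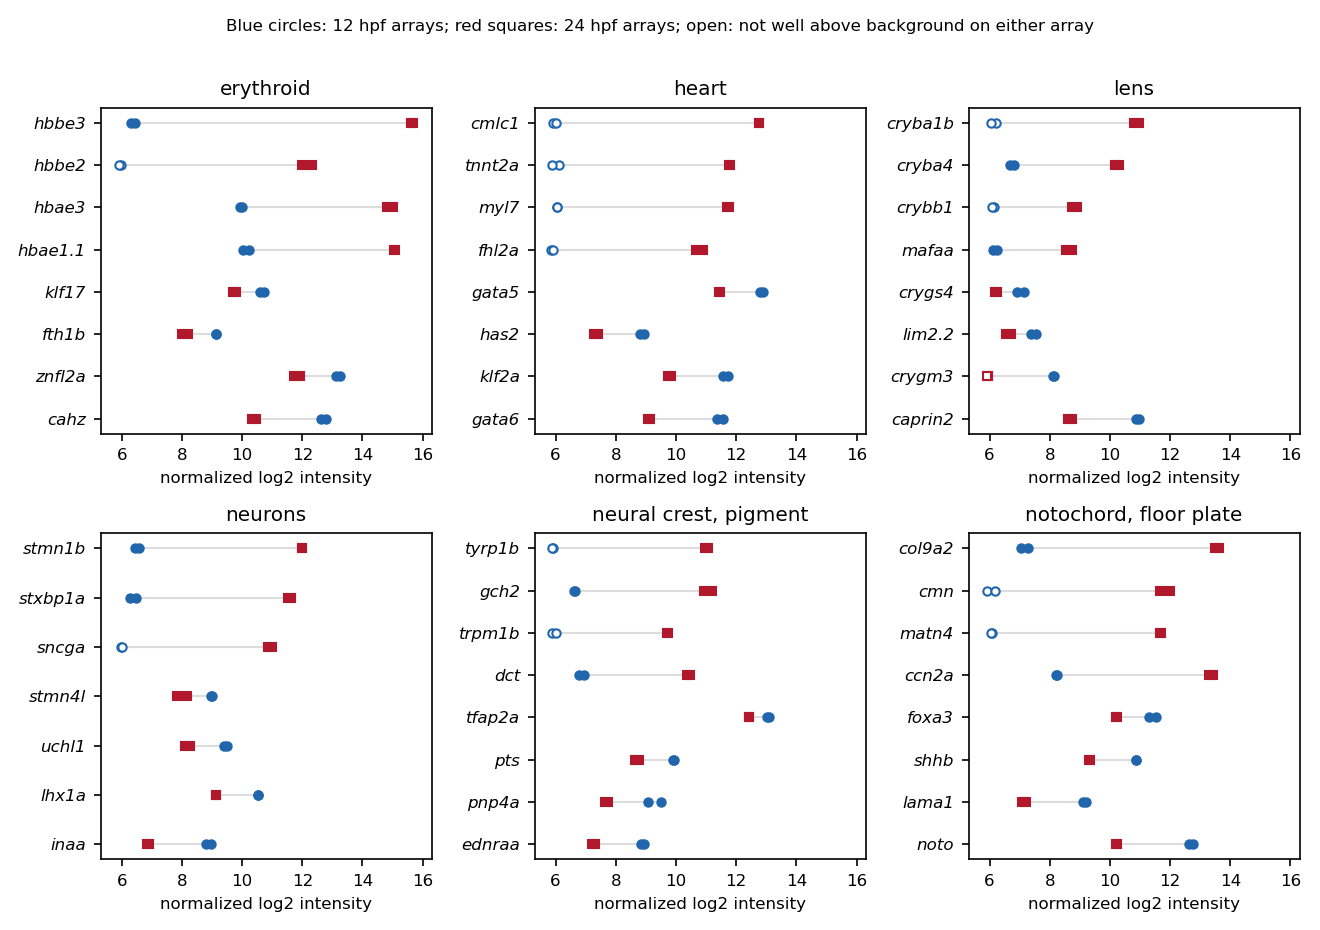
Normalized log2 intensity on each array (x axis) for the genes named in 6 tissue groups by the size of their rise or fall, blue circles for the 12 hpf arrays and red squares for the 24 hpf arrays, open where the probe was not well above background on either array of that age. In each panel the rising genes start near 6 to 10 and the falling genes are those that stood well above background at 12 hpf.

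Several lens crystallin genes rose and 1 that is described here fell. Of 50 lens genes on the array 30 were measured, with 20 higher, 6 lower and 4 not past the threshold, and a median of 0.61; of the 14 well above background on all 4 arrays 7 were higher and 4 lower. The beta crystallin gene cryba1b was at least 27.0-fold higher at 24 hpf, where it read 10.97 and 10.79. Another, cryba4, rose by 3.50 ± 0.09, from 6.80 and 6.67 to 10.31 and 10.17. The lens transcription factor gene mafaa read 6.26 and 6.10 at 12 hpf, well above background on 1 of 2 arrays, and 8.52 and 8.72 at 24 hpf. The gamma crystallin gene crygm3 went the other way, from 8.12 on both 12 hpf arrays to 5.94 and 5.93, not well above background, so that it was at least 4.37-fold lower at 24 hpf. An RNA-binding gene of lens fibres, caprin2, fell by 2.24 ± 0.09; it has other known roles in the early embryo.

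Some paralogues in the eye group moved in opposite directions and others moved together. Of 42 genes of the eye field and retina 38 were measured, 24 higher, 10 lower and 4 not past the threshold, with a median of 0.86; of the 29 well above background on all 4 arrays 17 were higher and 10 lower, with a median of 0.55. The largest fall of the group was that of six7 (-6.10), described above. The eye field homeobox gene rx3, needed for the optic vesicle to form, fell from 13.50 and 13.48 to 10.20 and 10.18, a difference of -3.30 ± 0.07. Its paralogue rx1, which acts in retinal progenitors, rose by 4.36 ± 0.09, from 6.36 and 6.29 to 10.76 and 10.61. Among other early eye genes, chosen after their values were seen, six3a rose by 1.60 ± 0.09 and pax6a by 1.79 ± 0.07, while six3b fell by 0.61 ± 0.08 and pax6b by 0.43 ± 0.11. Of pairs chosen likewise that moved together, six6a rose by 1.47 ± 0.08 and six6b was at least 3.08-fold higher. The regional genes foxd1 (4.02 ± 0.08) and hmx4 (3.37 ± 0.07) rose, while otx2b, a gene of the forebrain and midbrain, fell by 1.53 ± 0.07. Its paralogue otx2a fell by 1.19 ± 0.08. The synuclein gene sncga, counted here and among neurons, was at least 30.7-fold higher.

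Neural progenitor and brain patterning genes were measured for all 93 on the array. Of these 46 were higher, 31 lower and 16 not past the threshold, with a median of 0.30. Among the 87 well above background on all 4 arrays 39 were higher and 31 lower, with a median of 0.12. Under 75th percentile scaling 37 of the 93 were higher and 40 lower. The radial glia genes gfap and fabp7a rose strongly. The gfap probe, for an intermediate filament, went from 7.69 on both arrays to 12.38 and 12.41, a difference of 4.70 ± 0.07, and fabp7a, a lipid-binding protein, rose by 4.59 ± 0.08, from 7.54 and 7.67 to 12.20 and 12.19. The midbrain-hindbrain gene en1b rose by 4.41 ± 0.09. Among genes of early neural plate patterning that fell were hesx1, of the anterior plate, from 10.62 and 10.58 to 7.93 and 7.92, irx7, of the hindbrain border, from 12.98 and 13.02 to 10.70 and 10.80, and her5, which holds the midbrain-hindbrain territory undifferentiated (-2.26 ± 0.10). Another member of the hairy family, her3, fell by 1.95 ± 0.12.

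Neuronal differentiation genes rose in 73 of 97 measured cases, with 10 lower and 14 not past the threshold and a median of 1.09, of 114 on the array. Of the 66 well above background on all 4 arrays 47 were higher and 10 lower, with a median of 1.12. The microtubule regulator stmn1b rose by 5.48 ± 0.08, from 6.58 and 6.45 to 12.00 and 11.99. The synaptic fusion gene stxbp1a rose by 5.21 ± 0.09, from 6.46 and 6.28 to 11.63 and 11.53. Both were well above background before they rose, so their folds, 44.6 and 37.0, are not given as bounds. The size of folds depended on the background correction. The group median was 1.42 with an offset of 16 in place of 50, and 2.40 under processed signals. The falls were smaller: the intermediate filament gene inaa dropped by 2.02 ± 0.08, the ubiquitin hydrolase gene uchl1 by 1.28 ± 0.09, and lhx1a, a LIM homeobox gene that is also active in the gastrula organizer and kidney, by 1.38 ± 0.07.

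Some pigment genes of the neural crest rose by large factors and others fell or did not pass the test. Of 42 crest and pigment genes 37 were measured, 23 higher, 6 lower and 8 not past the threshold, with a median of 0.66. Among the 31 well above background on all 4 arrays 17 were higher and 6 lower, with a median of 0.43. The melanosome enzyme gene tyrp1b was at least 33.2-fold higher at 24 hpf, where it read 11.08 and 10.96, and trpm1b, a channel of melanophores, at least 13.3-fold. The melanin synthesis gene dct rose by 3.56 ± 0.09, from 6.79 and 6.94 to 10.47 and 10.38, and gch2, of pteridine synthesis in yellow pigment cells, by 4.43 ± 0.11, from 6.65 and 6.61 to 11.20 and 10.92. The crest regulator sox10, which is also expressed in the ear, rose by 3.04 ± 0.07. The purine synthesis gene pnp4a of silvery pigment cells fell by 1.61 ± 0.15, pts, of the same pteridine pathway as gch2, by 1.21 ± 0.08, the endothelin receptor gene ednraa by 1.63 ± 0.08, and tfap2a, an early crest and epidermal factor, by 0.63 ± 0.08. The melanosome ion exchanger gene slc24a5, chosen after its values were seen, differed by 0.03 ± 0.09 and did not pass the test.

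Genes of the skin divided evenly. Of 65 epidermal and keratin genes on the array 61 were measured, with 28 higher, 21 lower and 12 not past the threshold. The median was 0.19 under quantile normalization and -0.22 under 75th percentile scaling, where 22 were higher and 29 lower. Among the 54 well above background on all 4 arrays 21 were higher and 21 lower, with a median of 0.13. The tight junction gene cldn1 rose by 5.59 ± 0.07, from 7.42 on both arrays to 13.03 and 12.98. The keratin gene krt1-19e was at least 56.0-fold higher, krt18b rose by 4.25 ± 0.11, and s100a10b, an annexin partner, by 4.40 ± 0.08. Among the falling members were an annexin, a claudin and a zinc-finger factor. The annexin gene anxa1a went from 14.07 and 14.05 to 12.44 and 12.55. The claudin gene cldne went from 12.42 and 12.36 to 11.01 and 11.02, and gata3 from 10.11 and 9.97 to 8.17 and 8.14.

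Extracellular matrix genes rose in 37 of 49 measured cases, of 55 on the array, with 5 lower, 7 not past the threshold and a median of 1.13; of the 35 well above background on all 4 arrays 24 were higher and 5 lower. Collagens led them, and col9a2, described above, had the largest rise of the group (6.41). The type I collagen gene col1a2 rose by 6.07 ± 0.10, from 7.60 and 7.56 to 13.78 and 13.53, and col1a1a by 5.72 ± 0.09, from 6.33 and 6.26 to 12.11 and 11.93. The matrilin gene matn4 was at least 49.7-fold higher. Among the matrix genes that fell were fibronectin fn1a, from 11.40 and 11.52 to 9.44 and 9.49, and the laminin gene lama1 (-2.02 ± 0.09). Another laminin gene, lamb1a, fell by 1.00 ± 0.08.

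Notochord and floor plate genes moved both ways. Of 28 notochord and floor plate genes measured, of 31 on the array, 15 were higher, 10 lower and 3 not past the threshold, with a median of 0.48. Among the 23 well above background on all 4 arrays 11 were higher and 10 lower, with a median of 0.03. The notochord factor noto went from 12.76 and 12.63 to 10.22 and 10.20, a difference of -2.48 ± 0.08. The winged-helix gene foxa3 fell by 1.20 ± 0.10 and the hedgehog ligand gene shhb by 1.54 ± 0.07. Regulators of the same group that rose, chosen after their values were seen, were shha, the paralogue of shhb, by 1.22 ± 0.09 and foxa1 by 1.42 ± 0.10. The notochord sheath gene cmn, calymmin, was at least 54.2-fold higher, and the matricellular gene ccn2a rose by 5.14 ± 0.09, from 8.21 and 8.23 to 13.28 and 13.43.

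The hatching gland makes the enzymes that digest the egg envelope. Of its 19 genes on the array 14 were measured, 7 higher, 5 lower and 2 not past the threshold, with a median of 0.21 that was -0.29 under 75th percentile scaling and under processed signals. The hatching enzyme gene he1.1 rose by 4.29 ± 0.08, from 10.42 and 10.40 to 14.67 and 14.73, and he1.2 by 4.28 ± 0.09, from 8.75 and 8.68 to 12.92 and 13.08. These paralogues are close in sequence, so that their probes may share signal. The protein disulfide isomerase family gene agr2 rose by 3.51 ± 0.10, and the early prechordal gene gsc, which is in this group too, fell by 5.55 ± 0.07.

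Genes for the handling of yolk lipid and for plasma proteins rose in 31 of 46 measured cases, of 52 on the array, with 10 lower, 5 not past the threshold and a median of 1.01. Among the 35 well above background on all 4 arrays 25 were higher and 7 lower, with a median of 1.09. The apolipoprotein gene apoa4a read 6.23 and 6.40 at 12 hpf, well above background on 1 of 2 arrays, and 12.47 and 12.07 at 24 hpf. Apolipoprotein E, apoea, was at least 34.3-fold higher, and the fibrinogen chain gene fgb rose by 4.58 ± 0.12, from 6.83 and 7.06 to 11.63 and 11.40. The fatty acid-binding protein gene fabp3 rose by 4.50 ± 0.10, from 10.85 and 10.65 to 15.29 and 15.20. The nuclear receptor genes hnf4a and hnf4b, known for liver and gut, fell by 2.31 ± 0.14 and 1.49 ± 0.08.

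Endoderm and pancreas genes moved both ways, 24 higher, 17 lower and 7 not past the threshold among 48 measured of 57 on the array. Their median of 0.18 was 0.04 among the 36 well above background on all 4 arrays. Among factors of early endoderm formation, sox32 fell by 5.40 ± 0.07 and mixl1 from 11.75 and 11.88 to 7.88 and 7.84. Among genes of endocrine cells, insm1a rose by 3.96 ± 0.08, from 7.51 and 7.42 to 11.45 and 11.40, neurod1, shared with neurons, by 3.95 ± 0.08, while the somatostatin gene sst2 was at least 9.72-fold higher. The glucagon gene gcga, chosen after its values were seen, read 6.45 and 6.73 at 12 hpf and did not pass limma's test (adjusted p = 0.982). The beta cell factor gene mnx1, chosen likewise, fell by 0.69 ± 0.09. The transcription factor gene mafa, chosen likewise and not the same as mafaa of the lens group, fell by 0.88 ± 0.08. In the same group pdx1 (1.28 ± 0.10), nkx2.2a (1.84 ± 0.07) and isl1a (1.08 ± 0.09), chosen likewise, rose. The insulin gene ins, chosen likewise, was not well above background at 12 hpf and at least 4.54-fold higher at 24 hpf. Its paralogue insb fell by 2.86 ± 0.12, from 10.44 and 10.10 to 7.42 and 7.39. The gut mesenchyme gene nkx2.3 rose by 3.20 ± 0.10.

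Genes of the ear, kidney and cilia were higher in 44 of 76 measured cases, of 80 on the array, with 17 lower, 15 not past the threshold and a median of 0.71. Among the 66 well above background on all 4 arrays 36 were higher and 16 lower, with a median of 0.70. The sodium pump gene atp1a1a.4 of kidney and ionocytes read 6.42 and 6.18 at 12 hpf, well above background on 1 of 2 arrays, and 12.17 and 12.20 at 24 hpf, a difference of 5.88 ± 0.10. The kidney cadherin gene cdh17 rose by 3.47 ± 0.09, from 7.38 and 7.24 to 10.81 and 10.74. The starmaker gene stm, for a protein that shapes the ear stones, fell by 2.27 ± 0.16, from 12.48 and 12.47 to 9.96 and 10.45. The early kidney factor osr1 fell by 1.46 ± 0.08, and the gene mns1, for a protein of motile cilia, by 1.46 ± 0.08.

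Genes of the presomitic mesoderm fell. Of 45 on the array 42 were measured, each above background at both ages, and 31 were lower, 7 higher and 4 not past the threshold, with a median of -0.92. The clock gene her7 fell from 11.25 and 11.26 to 8.51 and 8.55, a difference of -2.73 ± 0.07. Tail bud Wnt signalling genes fell with it, the ligand gene wnt8a by 2.90 ± 0.07, from 9.62 and 9.65 to 6.74 and 6.73, and the target gene sp5l by 2.76 ± 0.07, from 12.82 on both arrays to 10.08 and 10.04. Among the members that rose were uncx4.1, which marks the posterior part of each somite (1.53 ± 0.10), the homeobox gene evx1 (2.90 ± 0.12), and the Notch ligand gene dld, used in neurogenesis as well (0.95 ± 0.11).

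Hox genes give positional identity along the body axis in the order of their paralogue groups. All 46 on the array were measured, 33 higher, 11 lower and 2 not past the threshold, with a median of 0.94. Of the 39 well above background on all 4 arrays 26 were higher and 11 lower, with a median of 0.92. For 6 genes, all in groups 11 to 13, the probe was not well above background on either 12 hpf array. These were tested only because they were bright at 24 hpf. The differences varied along the clusters. Group 1, at the anterior end, had 2 genes higher and 2 lower, with hoxb1a, chosen after its values were seen, down from 9.44 and 9.39 to 8.31 and 8.68. Group medians were 1.83, 1.46, 0.83 and 0.82 for groups 2 to 5, between -0.68 and 0.32 for groups 6 to 9, and 1.05, 1.25, 2.13 and 1.43 for groups 10 to 13, each over 1 to 6 genes. The largest rises were posterior, with hoxc13a up by 4.27 ± 0.10, from 6.64 and 6.74 to 11.05 and 10.85, hoxd12a by 3.40 ± 0.09, and hoxd13a at least 7.58-fold higher. The largest falls were of hoxc6b, by 1.90 ± 0.09, from 9.96 and 10.12 to 8.07 and 8.21, and of hoxb1b, a gene of the early hindbrain, which read 13.31 on 12 hpf replicate 2 and 11.96 and 11.92 at 24 hpf, its spot on 12 hpf replicate 1 having been left out as an outlier. As a description over 46 genes that share the same arrays, paralogue group and difference correlated at r = 0.296 and rho = 0.244. The posterior genes not well above background at 12 hpf are included in these values and in the group medians.

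**Figure D4:**
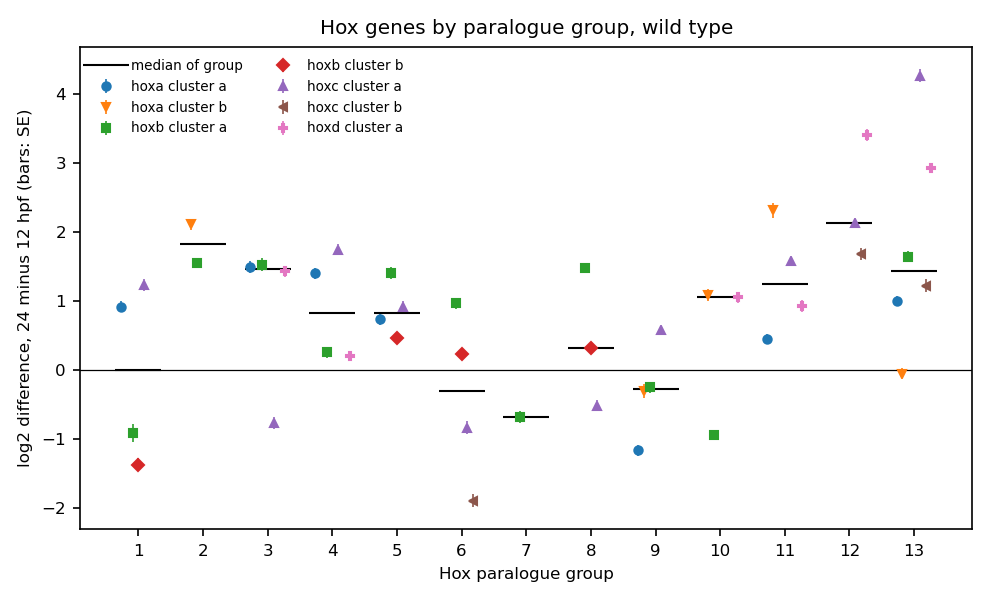
Log2 difference between 24 and 12 hpf (y axis, bars SE) of 46 Hox genes by paralogue group (x axis), with a symbol for each cluster and a bar for the median of the group. Genes of groups 2 to 5 and 11 to 13 lie mostly above 0, with hoxc13a at 4.27, and those of groups 6 to 9 lie on both sides of it.

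Genes that pattern the gastrula fell as a group. Of 82 on the array 81 were measured, 65 lower, 11 higher and 5 not past the threshold, with a median of -0.95, and for 5 of them the probe was not well above background on either 24 hpf array. The organizer gene gsc, a homeobox repressor of the dorsal lip, went from 12.26 and 12.30 to 6.74 and 6.73, a difference of -5.55 ± 0.07. The secreted Bmp inhibitor gene chrd fell by 4.58 ± 0.12, from 12.59 and 12.90 to 8.13 and 8.20, and the secreted Wnt inhibitor gene frzb by 4.44 ± 0.10, from 11.45 and 11.66 to 7.14 and 7.09. The pluripotency factor pou5f3 fell by 4.14 ± 0.13, from 12.60 on both arrays to 8.64 and 8.26, and the ligand gene wnt8-2 by 4.10 ± 0.13. Rises in the group were few and smaller, led by evx1 and by the noncanonical Wnt ligand gene wnt11, up by 1.89 ± 0.09. The T-box gene eomesa was called higher by 0.94 ± 0.27, but its 12 hpf replicates had an SD of 0.65 (n = 2), and the call was lost without either 24 hpf array.

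Transcripts that the oocyte supplies were lower at 24 hpf. Of 68 oocyte and maternal genes on the array 67 were measured, 53 lower, 5 higher and 9 not past the threshold, with a median of -1.28. The oocyte kinase gene wee2, which holds meiosis, fell by 4.95 ± 0.08, from 11.51 and 11.48 to 6.49 and 6.59. The maternal growth factor gene gdf3, needed for Nodal signalling in fish, fell by 3.62 ± 0.08, from 11.38 and 11.25 to 7.71 and 7.68. The oogenesis-related gene org fell by 3.61 ± 0.09. Of the members that rose, zbtb16a, a zinc-finger factor with zygotic expression in the nervous system, went from 12.00 and 12.17 to 15.03 on both arrays, and the cyclin kinase subunit gene cks2 rose by 0.84 ± 0.08.

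The germ plasm group holds genes of the few primordial germ cells. It also holds genes, among them prdm1a and ctsla, that are counted in other groups too. Of 25 on the array 22 were measured, 19 lower, none higher (0) and 3 not past the threshold, with a median of -0.68. The RNA-binding gene dazl fell by 3.14 ± 0.08, from 9.57 and 9.43 to 6.35 and 6.37, and the helicase gene ddx4, vasa, by 2.59 ± 0.11, from 10.00 and 9.78 to 7.20 and 7.39. Of members chosen after their values were seen, nanos3 fell by 0.87 ± 0.08 and dnd1 by 0.98 ± 0.08, and piwil1 (-0.09 ± 0.09) did not pass the test. The small heat shock gene hspb1, counted in this group and expressed elsewhere too, fell by 2.21 ± 0.10, from 15.47 and 15.43 to 13.12 and 13.37.

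**Figure D5:**
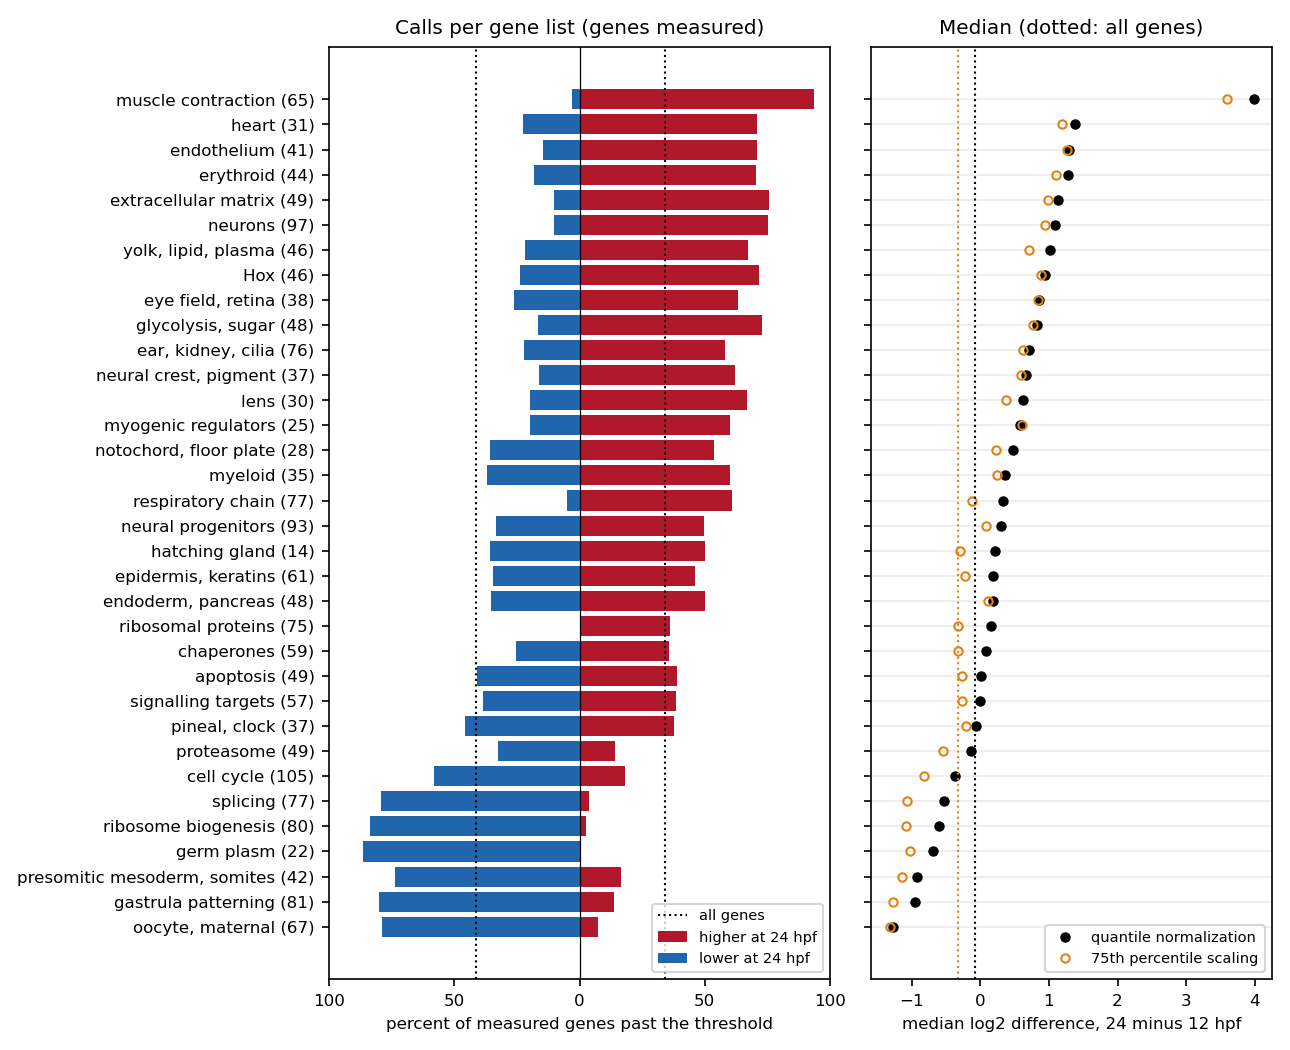
Left, the percent of measured genes of each of 34 groups that were higher (red) or lower (blue) at 24 hpf, with dotted lines at the shares over all genes; right, the median log2 difference of each group under quantile normalization (filled) and 75th percentile scaling (open), with the median of all genes dotted in the same colour. Muscle contraction lies highest with a median of 3.99 and oocyte and maternal genes lowest with -1.28, and groups near 0 shift with the scaling.

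Genes of growth and division were lower at 24 hpf. Of 106 cell cycle and replication genes on the array, all but 1 were measured, and 61 were lower, 19 higher and 25 not past the threshold, with a median of -0.37. The G1 cyclin gene ccne1 fell by 1.95 ± 0.10, from 11.38 and 11.18 to 9.37 and 9.29, the mitotic cyclin gene ccnb2 by 1.30 ± 0.07, from 13.44 and 13.42 to 12.14 and 12.12, and dhfr, which supplies nucleotide synthesis, by 2.21 ± 0.13. In the other direction the cyclin gene ccnd2a rose by 1.55 ± 0.12 and the kinase inhibitor gene cdkn1ba by 1.13 ± 0.08, from 11.70 and 11.83 to 12.86 and 12.93.

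Ribosome assembly genes fell more uniformly, 67 of 80 lower with 2 higher, 11 not past the threshold and a median of -0.61. The rRNA methyltransferase gene dimt1l fell by 1.48 ± 0.08, the RNA polymerase I subunit gene polr1b by 1.24 ± 0.10, from 13.00 and 12.88 to 11.60 and 11.81, and the nucleolar chaperone gene npm1a by 1.06 ± 0.11. The growth regulator myca rose by 3.14 ± 0.09, from 9.02 and 8.82 to 12.04 and 12.10. Splicing factor genes behaved alike, with 61 of 77 lower, 3 higher, 13 not past the threshold and a median of -0.53. The hnRNP gene hnrnpk dropped by 2.71 ± 0.12, from 10.84 and 10.55 to 8.07 and 7.91, and the spliceosome gene prpf31 by 1.29 ± 0.07. For ptbp2b and srsf7b, both called higher, another probe of the same gene was called in the opposite direction.

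The cytosolic ribosomal protein genes had no settled direction: 27 of 75 were higher, none lower (0) and 48 not past the threshold under quantile normalization, with a median of 0.15, while 75th percentile scaling gave 3 higher and 42 lower with a median of -0.32, equal to that of all genes under it. Leaving out 24 hpf replicate 2 left 14 higher, and leaving out 24 hpf replicate 1 made 1 lower. The largest difference was 0.87 ± 0.10, for rplp1. Respiratory chain genes were higher in 47 of 77 measured cases, of 79 on the array, with 4 lower (2 without either 24 hpf array or 12 hpf replicate 1), 26 not past the threshold and a median of 0.34, and under 75th percentile scaling in 12, with 25 lower and a median of -0.13. Relative to all genes their median was above 0 under both, by 0.42 and 0.20. The complex IV subunit gene cox6b1 rose by 3.21 ± 0.15, from 7.85 and 7.53 to 10.73 and 11.07, and the inhibitor of the ATP synthase atp5if1b by 2.25 ± 0.09.

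Genes of glycolysis and sugar use rose in 35 of 48 measured cases, of 55 on the array, with 8 lower, 5 not past the threshold and a median of 0.83; of the 41 well above background on all 4 arrays 28 were higher and 8 lower. The muscle aldolase gene aldoab rose by 7.96 ± 0.13, from 7.73 and 7.35 to 15.44 and 15.56, and the muscle glycogen phosphorylase gene pygma was at least 41.6-fold higher. The enolase gene eno1a rose by 4.54 ± 0.09, from 9.61 and 9.78 to 14.18 and 14.29. Other steps fell, the regulatory gene pfkfb1 by 2.28 ± 0.07, the lactate carrier gene slc16a3b by 1.71 ± 0.11 and pck2, of mitochondrial gluconeogenesis, by 1.32 ± 0.10, from 15.13 and 15.08 to 13.90 and 13.66.

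Proteasome genes were the group with most members not past the threshold in proportion after the ribosomal proteins, 26 of 49, with 7 higher, 16 lower and a median of -0.13; 75th percentile scaling gave 41 lower and none higher (0), and without 24 hpf replicate 1 there were 4 higher and 7 lower, without 24 hpf replicate 2 again 4 higher. The immune-type subunit gene psmb10 fell by 1.86 ± 0.09, from 10.35 and 10.31 to 8.39 and 8.54, and the activator gene psme1 by 2.11 ± 0.09. Chaperone genes counted 21 higher, 15 lower and 23 not past the threshold of 59 measured, with a median of 0.09; under 75th percentile scaling 14 were higher and 36 lower with a median of -0.33, and under processed signals 15 and 32. The myosin chaperone gene hsp90aa1.1 rose by 3.32 ± 0.08, from 10.16 and 10.08 to 13.42 and 13.46, and the muscle methyltransferase gene smyd1b, which works with it, by 2.54 ± 0.08. The co-chaperone gene dnaja1 fell by 1.84 ± 0.11.

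Targets of signalling pathways were 22 higher, 22 lower and 13 not past the threshold among 57 measured, with a median of 0.00, against 15 higher and 28 lower with a median of -0.27 under 75th percentile scaling. The immediate-early gene junba rose by 2.50 ± 0.10, and the phosphatase gene dusp2 fell by 3.61 ± 0.08, from 9.81 and 9.91 to 6.24 and 6.26. Pineal and clock genes were 14 higher and 17 lower of 37 measured, of 51 on the array, with 6 not past the threshold and a median of -0.06; without 24 hpf replicate 1 there were 9 higher. The period gene per1b rose by 4.03 ± 0.07, from 7.48 and 7.47 to 11.50 and 11.51. The clock repressor bhlhe41 fell by 2.03 ± 0.07 and its relative bhlhe40 rose by 2.65 ± 0.08. The cone arrestin gene arr3b was at least 5.17-fold lower at 24 hpf. The clock time at collection is not given in the sources used here.

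Apoptosis genes were 19 higher, 20 lower and 10 not past the threshold among 49 measured, with a median of 0.00 that was -0.26 under 75th percentile scaling, with 16 higher and 25 lower. The caspase gene caspb, active in epithelia and inflammation, rose by 3.94 ± 0.09, from 6.77 on both arrays to 10.63 and 10.80, and the survival gene bcl2a by 1.96 ± 0.11. The survivin paralogue birc5b, which also serves cell division, fell by 3.07 ± 0.08, from 10.55 and 10.46 to 7.39 and 7.47. The Bcl-2 family gene bcl2l10 fell by 1.40 ± 0.11. The badb transcript, of the family the morpholino was aimed at, was present in the wild type at both ages, going from 10.78 and 10.67 to 9.62 and 9.63, and was 2.15-fold lower at 24 hpf (limma adjusted p = 5.32e-05).

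Whether a gene's change from 12 to 24 hpf differed between the morphant and the wild type was tested on the log ratios of the 2 dyes. Under loess normalization 1104 of 9967 genes passed (11.1%), 407 with a higher change in the morphant (4.08%) and 697 with a lower one (6.99%), as did 2376 probes (8.84%), and 15 of the 20 largest rises and 20 largest falls were among them. No gene passed (0) when the ratios were median-centred, taken from processed signals or taken as the authors deposited them, where 382, 2285 and 2319 genes had an unadjusted p under 0.05. For this reason the wild-type changes above are not described as particular to the wild type.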

How the data were processed

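Wild-type RNA (Cy3) and morphant RNA (Cy5) shared each of the 4 arrays, with no dye swap. The intensity values, the median pixel signal of a spot and of its local background, were extracted with Agilent Feature Extraction 10.5.1.1, per the file headers. The processed intensities and the log10 ratios of Cy5 over Cy3 were background-subtracted and dye-normalized by that software, per the file headers, and the log10 ratios the authors deposited as a value table were the same as those of the scanner files (difference 0). RNA was extracted with Trizol and labelled from 1 µg, per the labels' protocols.

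Here the Cy3 signals of the 4 arrays were corrected with normexp (offset 50), taken to log2 and quantile-normalized together, in R 4.3.3 with limma 3.58.1. Control spots and spots with outlier flags (6 to 15 per array) were left out, spots of a probe were averaged, and probes well above background on both arrays of at least 1 age were kept. Ages were compared with lmFit and eBayes, two-sided, with no block. The change in the morphant minus that in the wild type was fitted to loess-normalized log2 ratios. The scripts were tested on simulated data.

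A gene was represented by its brightest kept probe. Of 19210 probes with a RefSeq accession 16770 matched a current RefSeq gene table (assembly GRCz12tu, used for names only). Of 3378 genes with more than 1 kept probe, 101 had probes called in opposite directions. Where a probe was not well above background on either array of an age, the fold is a bound, the bright mean over the higher of that age's probe signal and the lowest signal well above background on each array.

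Genes were named by a rule: the 20 largest rises and falls among called genes, the 4 largest rises and falls of each of 34 gene groups, and badb. The members and the gene groups were chosen with earlier results of these data known. Arrays carry no depth, and their number limits the precision. The alternatives tried were other background corrections, scalings, filters and probe rules, other eBayes settings, each array left out, and the replicate number as a block. Same-numbered arrays shared no label beyond the number. No sequences are given.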

Additional observations from a re-analysis of the deposited data

Results flagged for a closer look

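For 15 of the 40 genes with the largest wild-type rises or falls, the change from 12 to 24 hpf in the morphant differed from that in the wild type by limma's test of the difference under loess normalization (morphant minus wild type, log2). Among the rises, the difference was 0.42 for hbbe3, 0.40 for mylpfa and 0.42 for ckmb, a larger rise in the morphant under this normalization; for hbbe3 and ckmb the sign turned under processed signals and the deposited ratios (-0.0313 and -0.0147). Among the falls it was above 0, a smaller fall in the morphant, for nnr (0.38), wee2 (1.50), tmem144b (1.79), mixl1 (1.09), s100a1 (0.36) and gdf3 (0.86). It was below 0, a larger fall in the morphant, for six7 (-0.45), cdx1a (-0.82), wnt8-2 (-0.84), ankrd31 (-0.65), ptgdsb.2 (-0.46) and h1m (-1.08). The sign for nnr turned under median centring (-0.10). None of these 15 calls was kept under median centring, processed signals or the deposited log ratios, where 0 genes passed after adjustment. With 2 arrays per age, no single array could be tested as standing apart from its group.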

How the results depend on the processing

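The counts of genes and probes higher or lower in the wild type stayed within 1.5 times of their values under every alternative tried; leaving out 1 array gave 2878 to 3144 genes higher and 3440 to 3897 lower, and 6457 to 7713 probes higher and 8843 to 10331 lower. Of 258 named genes, 246 to 258 kept their direction and their call under each alternative that tested all of them. Signs turned for psmb2 (-0.24 under processed signals, -0.23 under 75th percentile scaling), for psmc1a (-0.0184 under 75th percentile scaling) and for ptbp2b (-0.26 as the mean of its probes, which disagree); the cause was not tested for the others. Group medians turned negative under processed signals and 75th percentile scaling, in that order, for the hatching gland (-0.29, -0.29), epidermis (-0.14, -0.22), ribosomal proteins (-0.32, -0.32), respiratory chain (-0.11, -0.13), chaperones (-0.35, -0.33), apoptosis (-0.27, -0.26) and signalling targets (-0.17, -0.27), with the median of all genes at -0.34 and -0.32. With only genes above background on all 4 arrays, the medians were -0.16 for the heart and -0.17 for myeloid genes, since the genes dim at 12 hpf drop out. The size of the differences also depended on the background correction. With a normexp offset of 16 and under processed signals, the medians were 4.55 and 6.48 for muscle contraction, against 3.99. They were 1.78 and 3.41 for the heart, against 1.38. For yolk and plasma genes they were 1.17 and 0.82, against 1.01.

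With the replicate number as a block (replicate block), 3267 genes were higher and 3970 lower; pairing replicate 1 of one age with replicate 2 of the other, tried after seeing the data, gave 8199 probes higher and 11283 lower, against 7913 and 11015. Labels give no pairing. The test of the morphant's change against the wild type's depended on the processing: 0 genes and 0 probes passed under processed signals, median centring and the deposited log ratios, with 6011, 815 and 6095 probes at an unadjusted p under 0.05. Leaving out 1 array gave 169 to 277 genes higher, 326 to 543 lower and 1128 to 2049 probes. Its sign turned for hbbe3 (-0.0313), ckmb (-0.0147) and crybb1 (-0.0722) under processed signals and the deposited ratios, and for nnr (-0.10) under median centring; the cause was not tested. Probes near background, 55.9% to 61.5% of probes being well above it, limit what could be measured.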

Other observations

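Gene families counted by symbol are given here; some members are also in the groups above. They were chosen after their values were seen, and their counts are descriptions against 34.1% of all genes higher and 41.5% lower. Zona pellucida genes, which code for the egg envelope, were lower in 14 of 15 measured cases with a median of -2.39, among them zp3.1 at -3.32, zp3e at -2.56 and zp3b at -2.53. The exception, zp3d.2, did not pass the test. Of 9 collagen genes counted by symbol 8 were higher, with a median of 4.68; col1a2, col1a1a and col9a2 were described above.

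Genes counted by symbol as binding, making or breaking down retinoids did not move one way, with 19 higher, 16 lower and 9 not past the threshold of 44 and a median of 0.05. Whether each of these genes acts on retinoids was not checked. The plasma retinol carrier gene rbp4 went from 9.92 and 10.05 to 14.33 and 13.86, and rbp7b rose by 4.28. The retinoic acid-degrading enzyme gene cyp26b1 rose by 1.42, and its relative cyp26a1 fell by 0.72. The synthesis genes rdh10b and aldh1a2 fell by 1.45 and 0.51, and aldh1a3 was at least 2.83-fold higher.

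Among 901 pairs of genes whose symbols differ only by a final a or b, both members were called in 507, of which 198 were both higher, 145 both lower and 164 (32.3%) in opposite directions. In 17 of the opposite pairs each member changed at least 2-fold. Across all 901 pairs the differences of the 2 members correlated at r = 0.353 (Pearson). Of all called genes 45.1% were higher, and the share of opposite directions among unrelated pairs was not computed. The 32.3% is therefore given as a description only. The examples below are opposite pairs. The calcineurin-like gene tesca fell by 1.91 and tescb rose by 3.69, inaa fell by 2.02 and inab rose by 3.25, and the hedgehog ligand gene shha rose by 1.22 where shhb fell by 1.54. A final letter does not always mark a duplicate, and a pair's probes can share signal.

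At 12 hpf some oocyte transcripts differed between the replicates. Of 67 oocyte and maternal genes 47 (70.1%) were higher on replicate 1 than on replicate 2, against 58.9% of all genes, with a median gap of 0.09 against 0.03. The gap was more than 0.5 for 3 of them. Examples given here are h1m, with 11.00 and 10.00, and ccna1, with 8.07 and 6.86. The nanog probe, in the gastrula group, read 10.66 and 9.88. The lean towards replicate 1 was not particular to oocyte genes. It was 77.6% among proteasome genes, 73.0% among pineal and clock genes and 72.7% among erythroid genes. Ribosomal protein genes (29.3%) and Hox genes (37.8%) leaned the other way. Of 12726 kept probes without a current symbol, 8246 (64.8%) were called, 3450 higher and 4796 lower, with differences from -4.64 to 9.36, and they are not described further.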
